A study of Mus musculus with 39 samples.

Results

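The genes described here encode the subunits of the mitochondrial respiratory chain and ATP synthase that are transcribed in the nucleus. Members were the protein-coding genes whose symbol starts with Ndufa, Ndufb, Ndufc, Ndufs, Ndufv, Uqcr, Cox4, Cox5, Cox6, Cox7, Cox8 or Atp5, together with Sdha, Sdhb, Sdhc, Sdhd and Cyc1. These were 94 of the 29980 genes in the count table, and the rule uses no measured value. Of them, 36 belong to complex I, 4 to complex II, 9 to complex III, 20 to complex IV and 17 to complex V. The other 8 carry the Ndufaf prefix and encode complex I assembly factors, which are not subunits. Complexes were assigned by symbol, so the supercomplex factor Cox7a2l and the coupling factor Atp5s are counted with complexes IV and V. A filter on low counts left 91 members to be tested; Cox4i2, Cox6b2 and Cox8c did not pass it.

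The data are RNA-seq counts from C2C12 cells, a mouse myoblast line that fuses into myotubes when serum is withdrawn. The KO cells had Flnc, the gene of the actin crosslinker filamin C, cut by CRISPR/Cas9 with a guide to its first exon; the WT cells were labelled wild type. Both lines were grown in DMEM with 4.5 g/L glucose, 10% FBS, 2 mM L-glutamine and Pen-Strep. They were then differentiated in DMEM with 2% horse serum, L-glutamine and Pen-Strep, renewed daily. RNA was taken at day 0 (not differentiated) and at days 1, 2, 4 and 6 of differentiation. KO had 4 libraries at days 0, 1, 4 and 6 and 3 at day 2, and WT had 4 at every day, 39 in all, numbered as replicates 1, 3, 4 and 5. The labels name no separate KO clones, so the knockout cannot be told apart from other differences between the KO and WT lines. They do not say that replicates were separate cultures, so p-values measure the spread between these libraries, which may be technical.

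Complexes I to IV pass electrons from NADH and succinate to oxygen, all but complex II pump protons, and ATP synthase (complex V) uses the proton gradient to make ATP. Most subunits are nuclear-encoded and assemble with a core that the mitochondrial genome encodes. Differentiating muscle cells build up this machinery, and striated muscle replaces some ubiquitous complex IV subunits with muscle isoforms: Cox6a2 for Cox6a1, Cox7a1 for Cox7a2 and Cox8b for Cox8a.

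Promoter sequences are shown for members on which the results turn: the muscle isoforms Cox8b and Cox7a1 with their ubiquitous counterparts, Cox6a1, the counterpart of Cox6a2, and Ndufs4. Of the 94 members, 74 matched a RefSeq promoter (GRCm38.p6); Cox6a2 did not. Each line gives the 150 bases before the annotated start, 5′ to 3′ on the gene's own strand. Capitals mark a complete match, on either strand, to any of 6 motifs: the E-box CAGCTG and short words from the MEF2 (CTATTTA), NRF1 (GCGCATG), ETS (CCGGAAG), ERR (AAGGTCA) and YY1 (AAGATGG) consensus sites. These factors act on muscle genes (E-box, MEF2) or on genes of the respiratory chain.
Cox8b, chr7:140900447-140900596, minus strand: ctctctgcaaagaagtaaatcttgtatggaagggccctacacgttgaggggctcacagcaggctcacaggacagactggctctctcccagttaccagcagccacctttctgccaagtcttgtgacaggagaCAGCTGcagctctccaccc
Cox7a1, chr7:30184021-30184170, plus strand: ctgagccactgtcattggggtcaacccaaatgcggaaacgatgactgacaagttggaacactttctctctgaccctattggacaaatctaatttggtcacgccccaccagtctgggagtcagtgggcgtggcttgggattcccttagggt
Cox8a, chr19:7217617-7217766, minus strand: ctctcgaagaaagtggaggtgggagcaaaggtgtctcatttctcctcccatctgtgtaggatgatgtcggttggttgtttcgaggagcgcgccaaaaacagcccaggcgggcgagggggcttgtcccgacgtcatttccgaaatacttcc
Cox7a2, chr9:79759854-79760003, minus strand: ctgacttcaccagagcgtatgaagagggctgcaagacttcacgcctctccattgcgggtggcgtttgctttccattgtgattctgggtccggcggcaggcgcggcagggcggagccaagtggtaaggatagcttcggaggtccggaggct
Cox6a1, chr5:115348959-115349108, minus strand: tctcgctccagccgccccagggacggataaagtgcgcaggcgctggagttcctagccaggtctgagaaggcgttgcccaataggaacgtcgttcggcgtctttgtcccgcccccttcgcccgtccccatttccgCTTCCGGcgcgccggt
Ndufs4, chr13:114388095-114388244, minus strand: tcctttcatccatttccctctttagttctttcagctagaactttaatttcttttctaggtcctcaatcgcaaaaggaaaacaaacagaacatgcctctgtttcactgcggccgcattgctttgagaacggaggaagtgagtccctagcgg
Cox8b holds the E-box close to its start and Cox6a1 an ETS match. The 150 bases shown for Cox7a1, Cox8a, Cox7a2 and Ndufs4 hold no complete match. Further matches lie beyond the printed bases. Cox8a has ETS matches at -5 from the start, cut by the end of the printed stretch, and at 32. Ndufs4 has a YY1 match at 35, Cox6a1 has NRF1 matches at -162 and -159, and Cox8b has a second E-box at 16. Over the whole RefSeq window, from 250 bases before to 50 after the start, the NRF1 word matched 20.3% of the 74 member promoters and 3.91% of all 32851 promoters. ETS matched 23% of member promoters against 8.86% of all, ERR 10.8% against 4.72%, and YY1 13.5% against 6.34%. The E-box matched 8.11% of member promoters against 16.3% of all, and MEF2 0% against 2.91%. No word contains another, and a match describes letters in this window, not a bound site.

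Library totals ranged from 6838281 to 28902526 counts, and depth was lowest at day 6 (group means of 10.2 M counts in KO and 11.5 M in WT). Flnc averaged 29.3 to 128 CPM (counts scaled to library size with TMM factors) in the KO groups and 672 to 1677 CPM in the WT groups, with all KO libraries below all WT libraries at every day. Of the 5 markers of myogenic cells, Myod1, Myf5, Des and Myog were counted in every library, and Pax7 was at 0 in 1 library with a median of 1.47 CPM. Of the adipocyte, macrophage and endothelial markers, Cidec and Adgre1 were at 0 in all 39 libraries, Plin1 and Cdh5 were at 0 in 37, and Lyz2 reached at most 3.72 CPM. Cd68, a macrophage marker, was counted in all 39, with a median of 1.66 CPM and at most 7.4 CPM. Lpl was also counted in all 39 and made up nearly all of a summed adipocyte list of 589 to 661 CPM in KO and 55.3 to 90.5 CPM in WT at day 6. Replicate 3 of KO day 1 stood apart, with 29425 summed CPM over the members where the other 3 libraries of its group had 10681 to 10812. Cytosolic ribosomal protein genes summed to 103787 CPM in that library and to 21022 to 30195 CPM in the other 3. Replicate 4 of WT day 0 was also the highest of its group, at 16461 member CPM against 10579 to 12449. Replicate 3 of KO day 0 was high too, at 21194 member CPM where the next library had 15756. It was kept in the fits below that left out the libraries that stood apart.

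Differentiation of WT cells was accompanied by a broad rise of the members. At day 6 against day 0 in WT, 47 of 91 tested members were higher and 0 were lower at an adjusted p under 0.05 (edgeR quasi-likelihood test, Benjamini-Hochberg over all 13780 genes tested). This share of 51.6% compares with 21.7% of all tested genes called higher and 27.8% called lower. At an unadjusted p under 0.05, 52 members passed, and the member with the lowest fold change was Uqcrc1, at -0.39 log2. The median log2 fold change was 0.74 over the members and -0.08 over all genes. Cytosolic ribosomal proteins, measured over the same libraries, had a median of 0.03, with 0 of 81 called higher and 2 lower. Mitochondrial ribosomal proteins had a median of 0.11, with 13 of 77 higher and 3 lower. Other lists moved too: 17 of 34 assembly factors of complexes II to V were higher and 4 lower (median 0.74), and 5 of 10 tested subunits of the mitochondrial genome were higher and 0 lower (0.88). Of 18 tricarboxylic acid cycle and pyruvate dehydrogenase genes, 8 were higher and 5 lower (0.31). Leaving out replicate 5 of WT day 6 reduced the called members to 30. Leaving out the libraries that stood apart (KO day 1 replicate 3 and WT day 0 replicate 4) raised them to 63, or 69.2% against 23% of all genes. All day 6 libraries lay above all day 0 libraries for 47 members and below for 0, where 20.8% and 24.9% of all genes did.

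The called members came mostly from complexes I, III, IV and V. In WT at day 6 against day 0, 22 of 36 complex I members (median log2 fold change 0.83), 7 of 9 in complex III (0.70), 8 of 17 tested in complex IV (0.76) and 9 of 17 in complex V (0.78) were called higher. None of the 4 complex II genes was called (0 of 4, median 0.27), and 1 of the 8 complex I assembly factors was (median 0.24). All 36 complex I genes had a positive fold change in WT.

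In KO cells the same interval gave fewer calls. At day 6 against day 0 in KO, 11 members were higher and 1 was lower, where 20.5% of all tested genes were higher and 23.1% lower. The share of members called was therefore below that of all genes. The median log2 fold change was 0.09 over the members, and by complex it was 0.04 (I), 0.07 (II), 0.32 (III), 0.27 (IV) and -0.01 (V). Leaving out replicate 5 of KO day 0 or replicate 3 of KO day 6 reduced the calls to 7. Leaving out the libraries that stood apart gave 14 higher and 6 lower (15.4% and 6.59%, against 23.6% and 25.3% of all genes). All day 6 libraries lay above all day 0 libraries for 11 members and below for 6, where 20.1% and 22.7% of all genes did. Cytosolic ribosomal protein genes had a median of -0.53 over the same comparison, with 9 of 81 lower; their part in the members' values was not tested.

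Of the 47 members that rose in WT, 9 also rose in KO (19.1% of the WT calls and 81.8% of the 11 KO calls). They were the muscle isoforms Cox6a2, Cox7a1 and Cox8b, the complex I genes Ndufs1 and Ndufa6, the assembly factor Ndufaf1, the complex III core gene Uqcrc2, and the ATP synthase genes Atp5j and Atp5s. Ndufa4l2 and Sdha were called in KO alone, which was not a test of the difference between lines. The fold change was larger in WT for 82 of 91 members. The 47 WT risers had a median of 0.28 in KO against 1.01 in WT, but they were picked by their WT change, which favours WT. Of the 47, 42 had a positive fold change in KO.

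**Figure D1:**
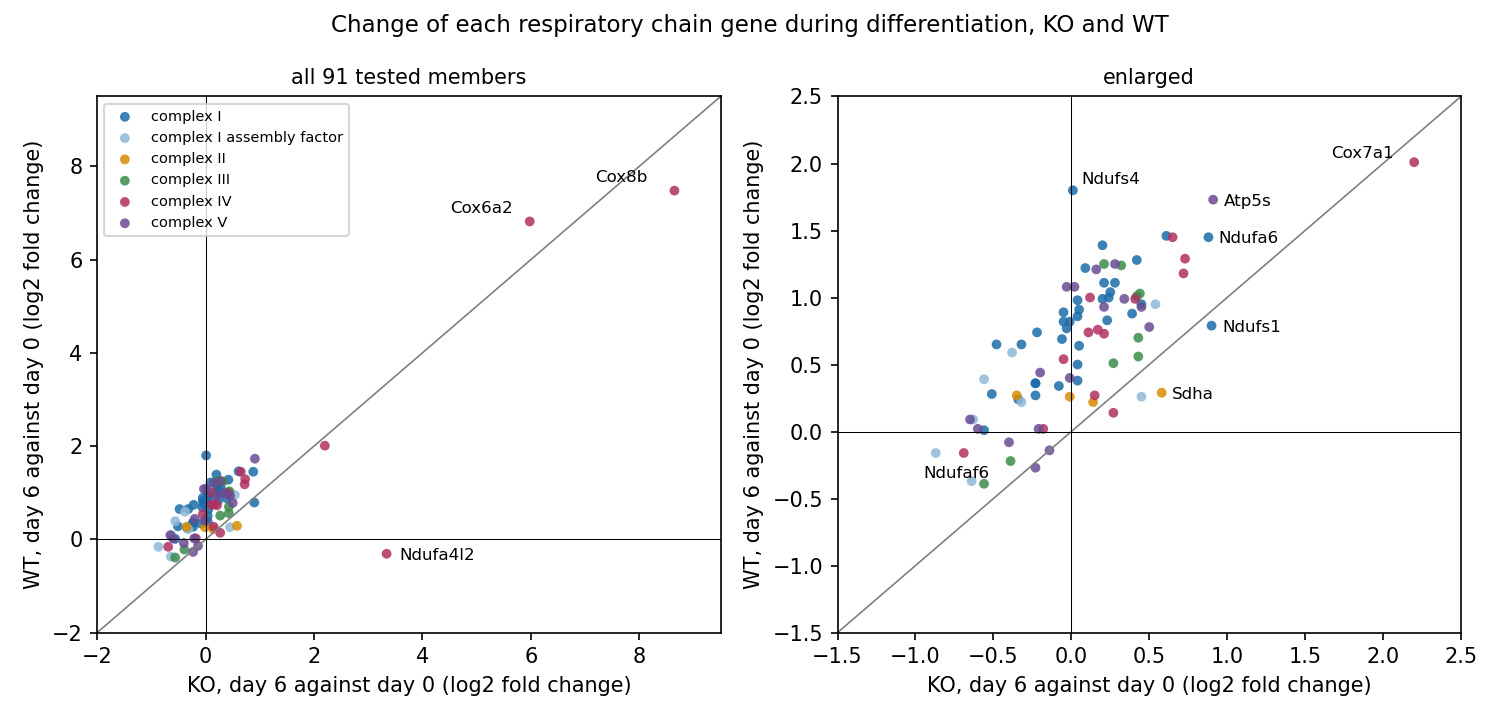
Log2 fold change at day 6 against day 0 in KO (x axis) and WT (y axis) for each of the 91 tested members, coloured by complex, with the central range enlarged on the right and a line of equal change. Most points lie above the line, 82 of 91, and Ndufs4 lies at 0.01 in KO and 1.80 in WT; the fitted change of Ndufa4l2 rests on 10 and 2 counts in KO.

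The difference between the lines in this change was itself tested as a genotype by day term. At day 6 against day 0, 82 of 91 members had a negative term (a smaller change in KO), with a median of -0.59 against 0.03 over all genes, but only Ndufs4 was called. That is 1 of 91, where 4.04% of all tested genes were called lower and 5.91% higher; 14 members had an unadjusted p under 0.05. The count changed with the libraries that stood apart: without KO day 1 replicate 3 and WT day 0 replicate 4, 23 members were called lower (25.3%, against 8.34% of all genes). That fit removed the WT library of day 0 with the highest member sum but kept the KO library of day 0 with the highest. Without WT day 0 replicate 4 alone 4 were called, and without KO day 6 replicate 3 there were 2. The median term was -0.79 in complex I, -0.17 in complex II, -0.28 in complex III, -0.54 in complex IV and -0.64 in complex V. Over the same term, 77 of 81 cytosolic ribosomal protein genes were negative (median -0.52), and so were 75 of 77 mitochondrial ribosomal protein genes (median -0.56). What they share with the members was not tested. At day 2 against day 0, 86 of 91 members had a negative term (median -0.63 against -0.03 over all genes) and 0 were called by edgeR or by DESeq2, where edgeR called 0.327% of all genes higher and 0.218% lower. At an unadjusted p under 0.05, 6 members passed. The day 2 term was negative for 81 of 81 cytosolic ribosomal protein genes (median -0.62) and for 75 of 77 mitochondrial ribosomal protein genes (median -0.47).

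At day 2 most members lay above their day 0 level in WT (63 of 91) and below it in KO (78 of 91). At day 2 against day 0 in WT, 5 members were higher and 0 lower, against 11.9% of all genes higher and 13.6% lower, with a member median of 0.18. The 5 were Cox8b, Cox6a2, Atp5s, Ndufa6 and Ndufv3, and 11 members had an unadjusted p under 0.05. Without replicate 3 or 5 of WT day 0, or replicate 3 of WT day 2, 3 were called. Without the libraries that stood apart, 10 were called, all higher (11%, against 12.9% of all genes). All day 2 libraries lay above all day 0 libraries of WT for 6 members and below for 0, where 10.6% and 12.6% of all genes did. At day 2 against day 0 in KO, 2 members were higher and 6 lower, against 12.7% of all genes higher and 13.9% lower, and 78 of 91 had a negative fold change (median -0.42 against -0.03 over all genes). In the same comparison 80 of 81 cytosolic ribosomal protein genes were negative (median -0.67, 5 called lower), and 76 of 77 mitochondrial ribosomal protein genes were (median -0.68, 23 called lower). Their part in the member values was not tested. In KO, 33 members lay below in all day 2 libraries against all day 0 libraries, and 4 lay above, where 19.5% and 18.8% of all genes did.

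The 2 that rose in KO by day 2 were Cox8b and Cox6a2, and the call of Cox6a2 was lost without replicate 1 of KO day 2 (2.24). The 6 that fell came from complexes I, IV and V or were complex I assembly factors. Atp5g1, which encodes the c subunit of the ATP synthase rotor, was at 79.9, 81.7 and 61 CPM at KO day 2 and at 115, 222, 139 and 127 CPM at KO day 0 (log2 fold change -1.02, edgeR adjusted p = 0.0325). Atp5g3, a further gene for the same mature protein, averaged 313 ± 57.8 CPM (SD, n = 3) at KO day 2 and 550 ± 136 CPM (n = 4) at KO day 0 (-0.81, edgeR adjusted p = 0.0283). Neither gene's groups overlapped. Ndufa9, an accessory subunit near the quinone site, fell by 0.73 on the log2 scale, and Cox5a, a nuclear subunit of complex IV, fell by 0.71. The assembly factors Ndufaf5, a hydroxylase acting on a complex I subunit, and Ndufaf7, a methyltransferase of complex I assembly, fell by 1.03 and 0.62. These calls depended on few libraries: 2 members in all were called without replicate 5 of KO day 2, 3 without replicate 1 of KO day 2 or replicate 3 of KO day 0, and 5 without replicate 3 of KO day 2. Without the libraries that stood apart 23 were called, 21 of them lower (23.1%, against 17.1% of all genes). With the replicate number as a block, 26 were called, 24 of them lower (26.4%, against 17.5% of all genes).

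**Figure D2:**
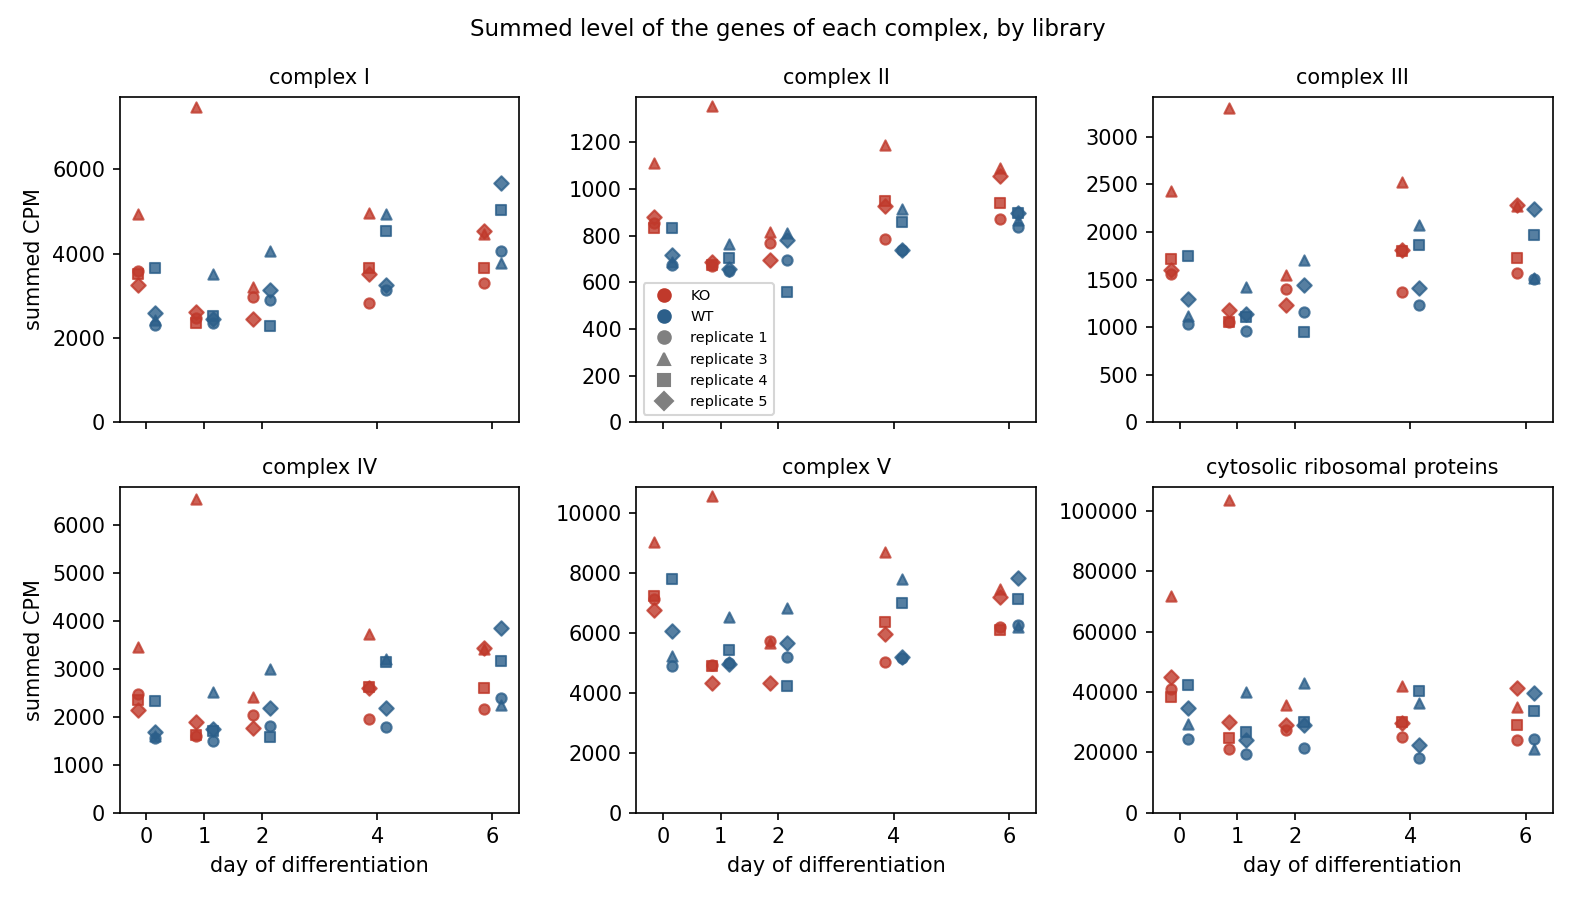
Summed CPM of the genes of each complex and of cytosolic ribosomal proteins in each library (y axis, from 0) by day of differentiation (x axis), KO red and left of WT blue, with the replicate number as the marker shape. Replicate 3 of KO day 1 is the highest point of each panel, at 10549 summed CPM for complex V and 103787 for the ribosomal proteins.

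Cox6a2 and Cox8b, muscle isoforms of complex IV, showed the largest changes with differentiation in both lines, and both were lower in KO. Cox6a2 encodes the muscle form of subunit VIa and was at 8.33, 13.6, 5.71 and 12.1 CPM in the 4 KO libraries of day 6, against 25.8, 33.3, 27.1 and 39.2 CPM in WT. At day 4 it was at 6.37, 13.8, 8.48 and 13.8 CPM in KO, against 20.4, 39, 33.6 and 21.3 CPM in WT. Every KO library lay below every WT library at both days. At day 2 Cox6a2 was at 2.75, 0.877 and 0.613 CPM in KO, against 5.61, 6.4, 17.5 and 8.56 CPM in WT, again without overlap. At day 1 it had 0 counts in all KO libraries and 60 counts over the WT libraries, which is at least 17.5-fold lower in KO, taking 3 counts over the KO group as the floor. At day 0 both lines were near 0, with 14 counts in KO and 28 in WT.

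The log2 fold change of Cox6a2 in KO against WT was -2.72 ± 0.70 at day 2 (SE, edgeR adjusted p = 0.00326), -1.43 ± 0.36 at day 4 (edgeR adjusted p = 0.048) and -1.66 ± 0.31 at day 6 (edgeR adjusted p = 0.022). The day 4 call was lost when any library but replicate 1 of WT was left out (-1.61 to -1.25), although the groups did not overlap. The day 6 call was lost without replicate 5 of WT (-1.56), replicate 1 of KO (-1.61) or replicate 4 of KO (-1.46).

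Cox8b, the muscle form of subunit VIII, was at 4.44, 18.2, 6.44 and 15 CPM at KO day 6, against 25.3, 19.9, 27.6 and 54.8 CPM at WT day 6. At day 4 it was at 3.55, 8.46, 4.77 and 7.34 CPM in KO, against 15.3, 35.4, 32.6 and 14.2 CPM in WT. The groups did not overlap at either day, and the closest pair at day 6 was replicate 3 in each line, 18.2 and 19.9 CPM. At day 2 Cox8b averaged 1.32 ± 0.268 CPM in KO (SD, n = 3) and 8.06 ± 3.12 CPM in WT (n = 4). The log2 fold change was -2.61 ± 0.36 at day 2 (edgeR adjusted p = 0.00175), -2.02 ± 0.45 at day 4 (0.00245) and -1.53 ± 0.57 at day 6 (0.0182). At day 1 it was -2.44 (edgeR adjusted p = 0.00691), and this call was lost without replicate 5 of WT (-1.54). The day 6 call was lost without the same 3 libraries as for Cox6a2, where it was -1.17 without replicate 5 of WT, -1.30 without replicate 1 of KO and -1.34 without replicate 4 of KO.

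Both genes nonetheless rose strongly in KO. At KO day 6 against KO day 0, Cox6a2 had 394 against 14 counts over the group, a depth-scaled ratio of 65.3 (95% interval 38.5 to 121, counting error only). Cox8b had 447 against 2 counts in KO, a ratio of 519 (143 to 4298). In WT the ratios at day 6 against day 0 were 116 (79.9 to 175) for Cox6a2 and 175 (111 to 297) for Cox8b. The fitted log2 fold changes were 5.98 in KO and 6.82 in WT for Cox6a2 (edgeR adjusted p = 1.52e-07 in KO and 4.24e-09 in WT). For Cox8b they were 8.65 in KO and 7.48 in WT (edgeR adjusted p = 1.47e-09 in KO and 1.54e-10 in WT), and the KO value depends on the prior count because KO day 0 had 2 counts. The genotype by day term at day 6 was called for neither, at -0.84 ± 0.76 for Cox6a2 (edgeR adjusted p = 0.677) and 1.17 ± 0.62 for Cox8b (edgeR adjusted p = 0.556). These SE values come from log2 CPM with a prior count of 2, which evens out groups near 0 counts, so they can be too small.

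Cox7a1, the muscle form of subunit VIIa, was not called between the lines at any day. It was at 3.06, 13.3, 3.32 and 9.4 CPM at KO day 6, against 2.76, 2.98, 2.09 and 11.3 CPM at WT day 6, so the groups overlapped. The highest KO libraries were replicates 3 and 5 and the highest WT library was replicate 5. At day 6 against day 0 it rose in both lines, by 2.20 on the log2 scale in KO (edgeR adjusted p = 0.00862) and by 2.01 in WT (edgeR adjusted p = 0.0141). The WT call was lost without replicate 5 of WT day 6, where the value was 1.19.

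**Figure D3:**
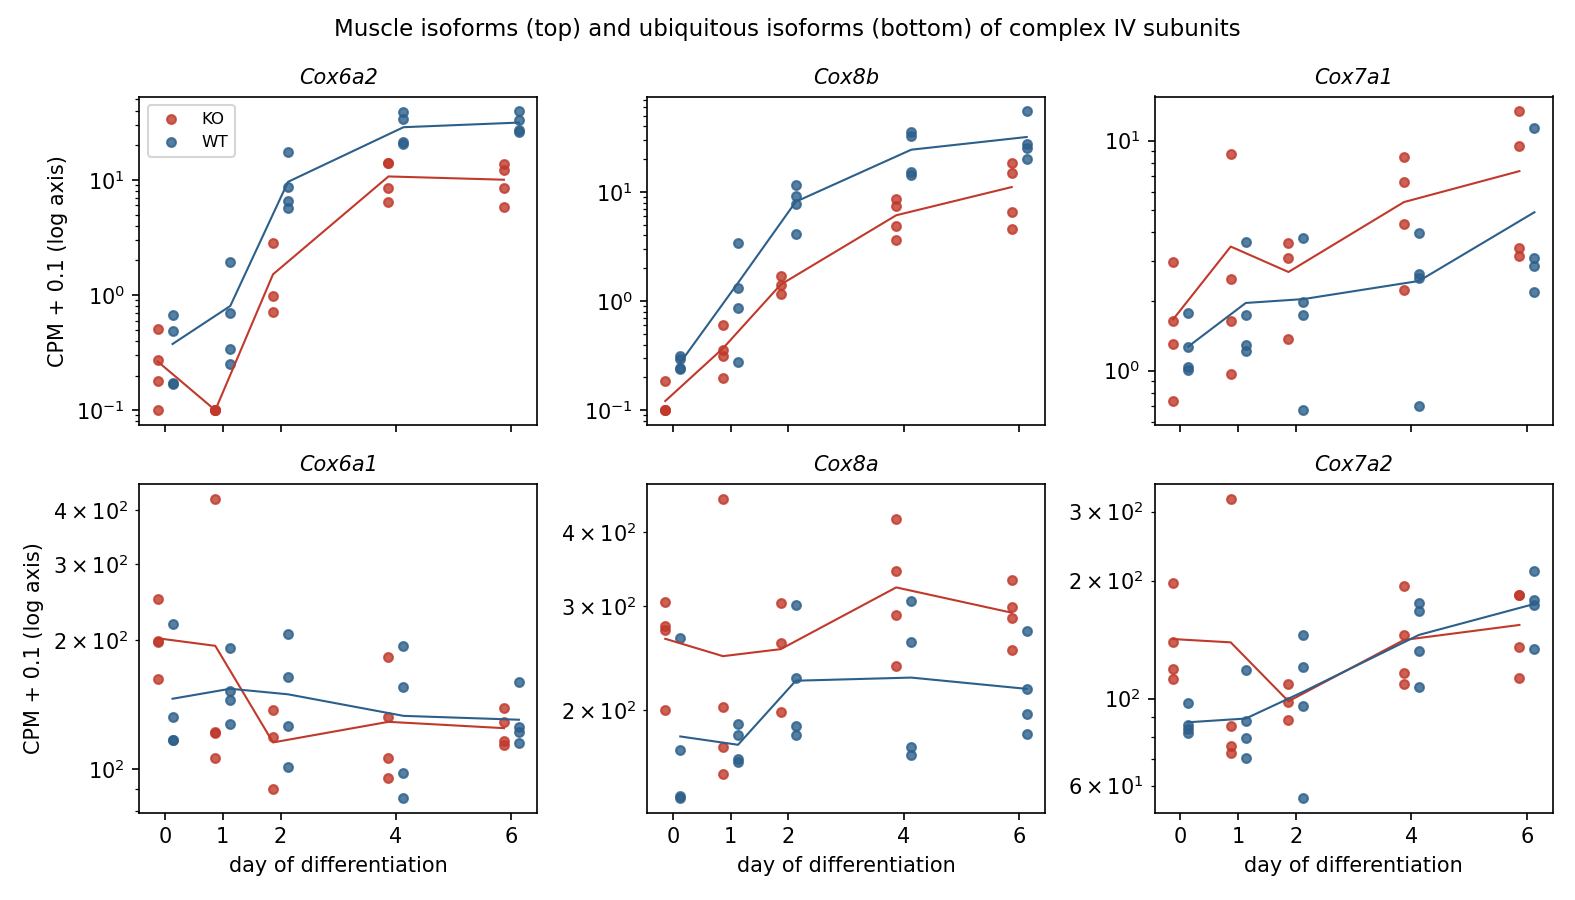
CPM plus 0.1 on a log axis (y) by day of differentiation (x) for the 3 muscle isoforms (top) and their ubiquitous counterparts (bottom), with 1 point per library, lines through group means, and KO red and left of WT blue. Cox6a2 and Cox8b lie lower in KO at days 2, 4 and 6 without overlap, Cox7a1 overlaps at every day, and the ubiquitous genes span a narrower range.

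None of the 3 ubiquitous counterparts was called between the lines at any day. At day 6 Cox6a1 averaged 124 ± 12 CPM in KO and 130 ± 19.7 CPM in WT (SD, n = 4 each), Cox8a 292 ± 33 CPM in KO and 217 ± 39.4 CPM in WT, and Cox7a2 154 ± 35.8 CPM in KO and 174 ± 32.1 CPM in WT. Cox7a2 was among the genes that rose in WT at day 6 against day 0, by a log2 fold change of 1.00 (edgeR adjusted p = 0.0121), and had a value of 0.12 in KO (edgeR adjusted p = 0.797). Of the 51-base windows in the Cox6a1 transcripts, 11.9% also occur in other genes, so its count is less certain; Cox6a2, Cox8b and Cox7a1 share 0%.

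Within-library ratios cancel the scaling between libraries. The log2 ratio of Cox6a2 to Cox6a1, with 0.1 CPM added to each, differed between KO and WT (KO minus WT) by -2.62 ± 0.84 at day 1, -2.45 ± 0.80 at day 2, -1.42 ± 0.24 at day 4 and -1.64 ± 0.30 at day 6 (SE), and the groups did not overlap. The difference for Cox8b to Cox8a was -1.80 ± 0.29 at day 0, -2.63 ± 0.43 at day 2, -2.48 ± 0.24 at day 4 and -2.08 ± 0.52 at day 6, also without overlap. At day 1 it was -1.94 ± 0.82, with overlap (exact permutation p = 0.0857, adjusted 0.179). The earliest values depend on the amount added: with 1 CPM, Cox6a2 to Cox6a1 differed by -0.75 at day 1 and Cox8b to Cox8a by -0.78 at day 0 and -1.10 at day 1. Each of these 8 differences without overlap had p = 0.0286 in an exact two-sided permutation test, the smallest that these numbers of libraries allow. The Ndufa4l2 to Ndufa4 ratio was also lower in KO without overlap at day 0 (-1.52) and day 1 (-1.74), with the same p. It rests on 2 counts in KO against 12 in WT at day 0, and on 0 against 11 at day 1. After adjustment over 25 tests the p of 0.0286 became 0.0714, so none passed. The Cox7a1 to Cox7a2 ratio was higher in KO by 1.28 ± 0.52 at day 4 (exact permutation p = 0.0571, adjusted 0.13) and by 0.85 ± 0.59 at day 6 (p = 0.171, adjusted 0.268).

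Counts per kilobase of exon give the share of each isoform within its pair. At day 6, Cox6a2 made up 7.48 ± 2.07% of its pair in KO and 20.1 ± 4.39% in WT, and Cox8b 5.85 ± 3.06% in KO and 19.8 ± 7.3% in WT (SD, n = 4 each). Cox7a1 made up 7.08 ± 3.38% in KO and 4.29 ± 2.98% in WT. The ubiquitous isoform thus remained the more abundant transcript of each pair in both lines at day 6. The hypoxia-associated isoforms Cox4i2 and Ndufa4l2 stayed below 1% of their pairs in every group mean. Cox7b2, a paralog of Cox7b, had 24 counts in KO and 0 in WT at day 2, at least 11.4-fold higher in KO, and 22 against 0 at day 4, at least 7.45-fold higher. It was the only member called higher in KO at those days; with at most 1.03 CPM in a library it remained close to the detection floor. These calls were lost with the replicate number as a block (edgeR adjusted p = 0.0805 at day 2 and 0.0608 at day 4) and under DESeq2 (0.057 and 0.0544). Leaving out 1 library at a time, the day 2 call held without replicate 1 of KO and was lost in the other 6 fits, and the day 4 call held without replicate 1 or 5 of KO and was lost in the other 6.

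The difference in Cox6a2 and Cox8b occurred beside a difference in other muscle genes. At day 6, 15 of 28 sarcomere genes were lower in KO and 0 were higher (edgeR, median log2 fold change -1.86), and their summed level was 13314 ± 3808 CPM in KO and 52303 ± 9388 CPM in WT (SD, n = 4 each). Of 14 HIF targets, 9 were lower in KO and 0 higher. Over all tested genes, 14.4% were lower and 14.5% higher at that day. Calls in both lists were present before differentiation. At day 0, 10 of 28 sarcomere genes and 6 of 14 HIF targets were lower in KO and 0 higher, where 9.09% of all genes were lower. In bulk RNA, fewer cells of a type and less RNA per cell cannot be told apart, and the part of the sarcomere difference in the isoform levels was not tested.

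Before differentiation the members tended to be higher in KO. At day 0, 85 of 91 members had a positive fold change in KO against WT, with a median of 0.47 where all genes had -0.01. Called members numbered 6 higher and 0 lower, and the background was 6.46% higher and 9.09% lower. In this fit, which does not use the replicate numbers, the share of 6.59% higher was near that of all genes. At an unadjusted p under 0.05, 28 members passed. All KO libraries lay above all WT libraries for 20 members, against 7.43% of all genes, and below for 1 (Cox8b), against 9.62%. Cytosolic ribosomal proteins had 80 of 81 positive fold changes in the same comparison (median 0.57, 3 called higher), and summed to 48996 ± 15475 CPM in KO and 32653 ± 7713 CPM in WT. Their part in the member values was not tested. Members called ranged from 1, without replicate 3 of KO, to 15, without replicate 4 of WT; there were 11 without replicate 4 of KO and 2 without replicate 1, 3 or 5 of WT. Without KO day 1 replicate 3 and WT day 0 replicate 4, 39 were called, all higher (42.9%, against 12.1% of all genes). That fit removed the highest WT library of day 0 but kept replicate 3 of KO, the library without which 1 member was called. With the replicate number as a block, 34 were called, 33 of them higher (36.3%, against 13.2% of all genes).

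The most changed of the 6 was Ndufaf3, an assembly factor for the quinone module of complex I, at 21.6, 16.9, 16.1 and 12.4 CPM in KO, against 7.17, 5.28, 11.4 and 5.09 CPM in WT. The groups did not overlap, and replicate 4 was the highest WT library. Its log2 fold change was 1.22 (edgeR adjusted p = 0.0053), and it kept its call without any 1 of the 8 libraries (1.06 to 1.51). Ndufaf7 was higher by 0.62 (0.0147), Uqcr10, a small subunit of complex III, by 0.93 (0.0413), and Ndufb6, a membrane-arm subunit of complex I, by 0.88 (0.045), each an edgeR adjusted p. The complex I accessory genes Ndufs5 (1.01, edgeR adjusted p = 0.0347) and Ndufa12 (0.76, 0.0364) share 30.8% and 26% of their 51-base windows with other genes, so their values are uncertain.

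At day 1, 8 members were higher and 2 lower in KO, against 8.1% and 9.93% of all genes, with a median of 0.49. All KO libraries lay above all WT libraries for 2 members and below for 1, against 7.66% and 11.0% of all genes. The 8 higher were the small complex III subunits Uqcrh, Uqcr10 and Uqcr11, the complex I accessory subunits Ndufb4 and Ndufa1, the supercomplex factor Cox7a2l, the ATP synthase stalk subunit Atp5h and Ndufaf3, and the 2 lower were Cox6a2 and Cox8b. In a fit of only the day 1 libraries of both lines, none of the 8 was called by edgeR, and Cox6a2 and Cox8b did not pass the filter on low counts. With the replicate number as a block, 15 members were called. Of these, 13 were higher (14.3%, against 11.8% of all genes) and 2 lower (2.2%, against 15.8%). Uqcrh, the hinge protein of complex III, shows what the 8 rested on: it was at 196, 976, 196 and 346 CPM in KO, against 135, 246, 149 and 198 CPM in WT. Replicate 3 of KO was the high value. Without that library none of the 8 was called and 2 members remained; 2 were called without replicate 4 of WT and 3 without replicate 1 or 5 of WT, whereas 18 were called without replicate 1 of KO and 17 without replicate 4 of KO. Ndufb4 and Atp5h also share 36.9% and 46.8% of their windows with other genes.

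**Figure D4:**
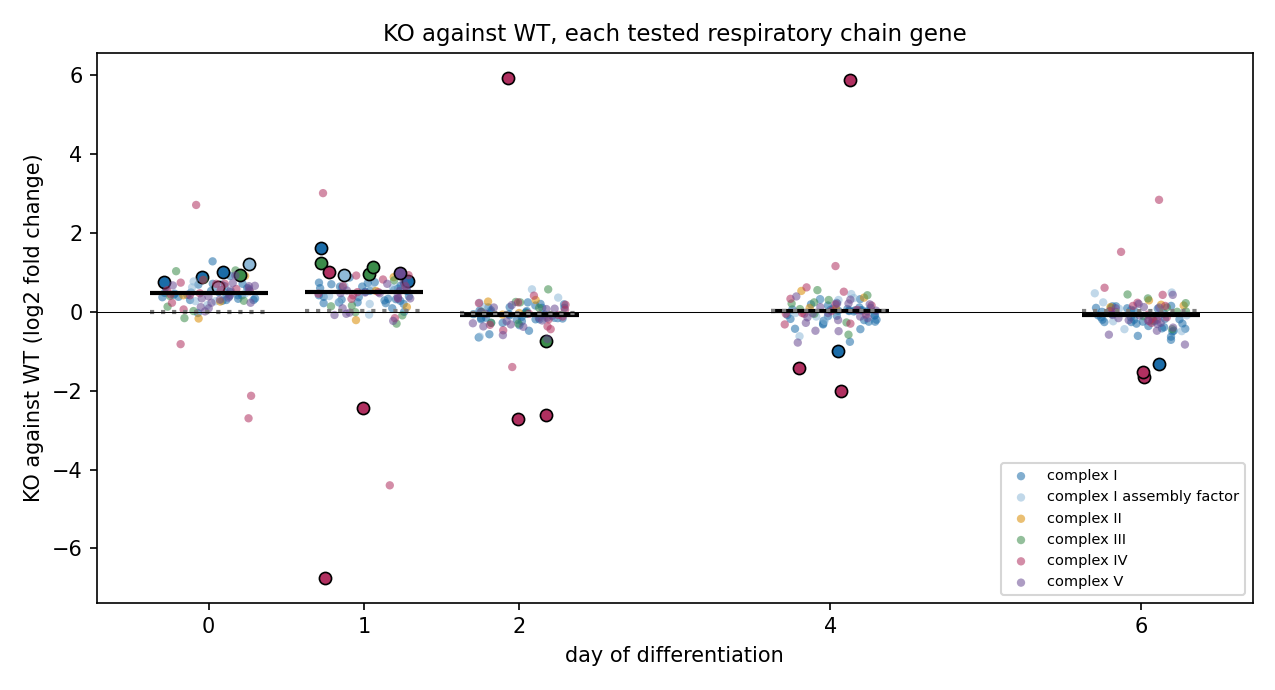
Log2 fold change in KO against WT (y axis) of each tested member at each day (x axis), coloured by complex, with outlined points called by edgeR, black bars at the member median and dotted grey bars at the median of all genes. The member median lies at 0.47 at day 0 and 0.49 at day 1 and near 0 from day 2; the most extreme points, Cox6a2 at day 1 and Cox7b2 at days 2 and 4, have 0 counts in 1 line and their fitted size depends on the prior count.

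From day 2 few members were called between the lines. At day 2, 1 was higher and 3 lower in KO (7.64% and 10.3% of all genes; median -0.08), at day 4 again 1 higher and 3 lower (13.3% and 14.2%; median 0.02), and at day 6, 0 higher and 3 lower (14.5% and 14.4%; median -0.09). The shares of members called were below those of all genes at each of these days, and 5 members had an unadjusted p under 0.05 at day 6. Without the libraries that stood apart 6 were called at day 6, all lower (6.59%, against 17.5% of all genes). Without replicate 5 of WT, or replicate 1 or 4 of KO, Ndufs4 alone was called. Summed over all members, the level at day 6 was 16729 ± 2390 CPM in KO and 17245 ± 2802 CPM in WT (SD, n = 4 each). Uqcrb, a quinone-binding subunit of complex III, was lower in KO at day 2, with 36.2, 31.1 and 41.3 CPM against 46.1, 54.3, 45.2 and 96.3 CPM in WT (-0.74 ± 0.28, edgeR adjusted p = 0.0409). That call was lost without replicate 5 of WT (-0.42) or without replicate 1 (-0.77), 3 (-0.64) or 5 (-0.86) of KO, and 42.5% of its windows occur in other genes. In all, 2 members were called at day 2 without replicate 5 of WT or without replicate 3 or 5 of KO. At day 4 there were 2 without replicate 3 of WT or replicate 1 of KO, and 1 without replicate 4 or 5 of WT or replicate 4 of KO. The replicate block gave 10 at day 4, 3 higher and 7 lower (3.3% and 7.69%, against 18.8% and 19% of all genes). It gave 6 at day 2, all lower (6.59%, against 14.6% of all genes).

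Ndufs4 was the complex I gene called lower in KO at days 4 and 6. It encodes an accessory subunit of the NADH-oxidising module, and its loss causes Leigh syndrome in humans. At day 6 it was at 49.2, 79.5, 60.5 and 73.6 CPM in KO, against 153, 123, 159 and 223 CPM in WT. At day 4 it was at 50.6, 66.6, 43.4 and 74.8 CPM in KO, against 97.5, 110, 126 and 134 CPM in WT. The groups did not overlap at either day, and the highest KO library of day 6 lay well under the lowest WT library. At day 0 the groups overlapped, with 52.9, 106, 43.3 and 57.7 CPM in KO against 48.5, 53.7, 35 and 51.9 CPM in WT.

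In KO against WT the log2 fold change of Ndufs4 was -0.99 ± 0.21 at day 4 (SE, edgeR adjusted p = 0.0273) and -1.32 ± 0.24 at day 6 (edgeR adjusted p = 0.00341). The day 6 call held without any 1 of the 8 libraries (-1.44 to -1.17), and the day 4 call was lost without replicate 4 or 5 of WT or replicate 1 or 4 of KO (-1.15 to -0.89 over all 8). Between day 6 and day 0, Ndufs4 rose by 1.80 ± 0.23 in WT (edgeR adjusted p = 5.79e-05) and had a value of 0.01 in KO (edgeR adjusted p = 0.984). The genotype by day term was -1.78 ± 0.39 (edgeR adjusted p = 0.0134) and remained called without any 1 of the 16 libraries (-1.94 to -1.47). The 51-base windows of Ndufs4 occur in no other gene.

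**Figure D5:**
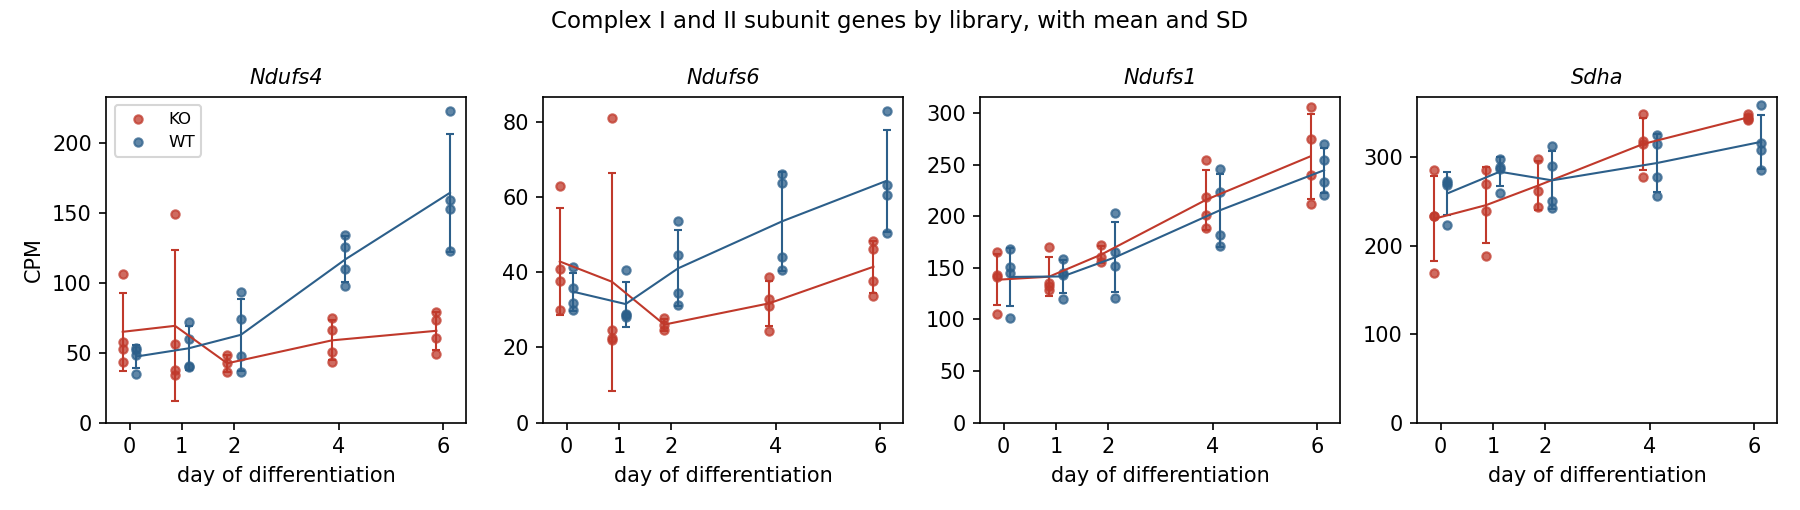
CPM (y axis, from 0) by day of differentiation (x axis) of Ndufs4, Ndufs6, Ndufs1 and Sdha, with 1 point per library, lines and bars at the mean and SD, and KO red and left of WT blue. Ndufs4 reaches 164 CPM on average at WT day 6 and 65.7 CPM at KO day 6, while Ndufs1 and Sdha overlap between the lines.

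Ndufs6, an accessory subunit of the same module, was at 33.6, 46.3, 37.7 and 48.2 CPM at KO day 6, against 60.6, 50.5, 63.3 and 83 CPM at WT day 6; the groups did not overlap, but the edgeR adjusted p was 0.107 (log2 fold change -0.63). In all, 6 members lay below without overlap at day 6 (among them Cox6a2, Cox8b, Ndufs4, Ndufs6 and Ndufa9) and 1 above (Atp5g2), where 16.7% and 16.9% of all genes did. At day 2, 5 lay below and 0 above (14.0% and 13.0% of all genes), and at day 4, 6 below and 0 above (13.5% and 12.8%). Ndufs1, the largest iron-sulfur subunit, averaged 258 ± 41 CPM in KO and 245 ± 22.1 CPM in WT at day 6, and in KO it rose by 0.90 on the log2 scale at day 6 against day 0 (edgeR adjusted p = 0.000104).

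Sdha, Uqcrc2, Cox4i1 and Atp5b, from the other complexes, were not called between the lines at day 6. Sdha, the flavoprotein of complex II, was at 345, 343, 342 and 349 CPM at KO day 6, against 316, 359, 286 and 308 CPM at WT day 6, with overlap. At day 6 against day 0 it rose by 0.58 in KO (edgeR adjusted p = 0.00228) and had a value of 0.29 in WT (edgeR adjusted p = 0.109). At day 6, KO against WT, the log2 fold change was -0.00 for Uqcrc2, a core protein of complex III, -0.00 for Cox4i1, the ubiquitous regulatory subunit of complex IV, and 0.11 for Atp5b, the catalytic beta subunit of ATP synthase. Their edgeR adjusted p-values were 0.998, 0.998 and 0.716, which does not show that the lines were equal. Atp5b was the most abundant of the 3 per length, at 2250 in KO and 1965 in WT (counts per kilobase of exon, scaled as TPM).

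Not all members rose with differentiation even in WT. Atp5b averaged 2631 ± 146 CPM at WT day 6 and 2590 ± 512 CPM at WT day 0 (edgeR adjusted p = 0.935). The largest WT risers below the muscle isoforms were Ndufs4 (1.80, edgeR adjusted p = 5.79e-05), Atp5s, a coupling factor of ATP synthase (1.73, edgeR adjusted p = 1.97e-07), Ndufa13 (1.46, 0.000141), Ndufa6 (1.45, 3.83e-05), Cox7b (1.45, 0.000553) and Ndufs5 (1.39, 0.000808), where each pair is the log2 fold change and the edgeR adjusted p. In KO, Atp5s rose by 0.91 (edgeR adjusted p = 0.00165) and Ndufa6 by 0.88 (edgeR adjusted p = 0.00802). The member that fell in KO was the assembly factor Ndufaf6, at 6.16 ± 1.28 CPM at day 6 and 11.3 ± 5.69 CPM at day 0 (-0.87, edgeR adjusted p = 0.0466). The groups overlapped, and replicate 3 of KO day 0 was the highest library, at 19.3 CPM. The call held without replicate 1 or 4 of KO day 0 and was lost without any 1 of the other 6 libraries (-1.04 to -0.46 over all 8, -0.46 without that highest library).

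By counts per kilobase of exon, the 3 c-subunit genes kept their order in both lines. Per kilobase, Atp5g3 made up 76.6 ± 2.1% of the 3 in KO and 81.2 ± 1.41% in WT at day 6, Atp5g2 15.3 ± 1.44% in KO and 11.3 ± 0.99% in WT, and Atp5g1 8.03 ± 0.953% in KO and 7.42 ± 0.964% in WT (SD, n = 4 each). Across all 10 groups the mean share of Atp5g3 ran between 74.5% and 81.3%. The order of Atp5g2 and Atp5g1 depended on the exon lengths, 1675 bases for Atp5g2 and 4912 for Atp5g1. Without division by length it was reversed at day 6. Atp5g1 then averaged 99.7 CPM in KO and 91.8 CPM in WT, against 64.1 and 47.5 CPM for Atp5g2. Both genes share some of their 51-base windows with other genes, so their counts are less certain. Atp5g2 was at 51.5, 70.7, 58.2 and 75.9 CPM at KO day 6, against 46.7, 46.2, 50.2 and 46.8 CPM at WT day 6, without overlap but without a call (0.43, edgeR adjusted p = 0.253).

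Lists of genes that act beside the respiratory chain gave calls in both directions. Among 34 tested assembly factors of complexes II to V, 3 were lower and 3 higher in KO at day 6 (edgeR), with a median of -0.07. At that day 14.5% of all tested genes were higher and 14.4% lower, the background for this list and those that follow. Uqcc1, a complex III assembly factor, averaged 54.7 ± 3.71 CPM in KO and 145 ± 5.21 CPM in WT (SD, n = 4 each; -1.40, edgeR adjusted p = 1.5e-08). Cox19, which serves copper delivery to complex IV, averaged 22.7 ± 2.43 CPM in KO and 58.2 ± 7.81 CPM in WT (-1.36, edgeR adjusted p = 0.000178), and Sco1, a copper chaperone of complex IV, was lower by a log2 fold change of -0.77 (edgeR adjusted p = 0.00627). Of 18 tricarboxylic acid cycle and pyruvate dehydrogenase genes, 2 were higher (Suclg2 and Idh3b) and 1 was lower (Pdhx), with a median of 0.03.

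Of 19 tested regulators of mitochondrial biogenesis, 4 were higher and 1 was lower in KO at day 6 (edgeR, median 0.25). The lower was Ppargc1a, the transcriptional coactivator PGC-1α, which had 0 counts in all KO libraries of days 1, 2, 4 and 6 and 2 counts over those of day 0. In WT it had 326 counts at day 0 and 308 at day 6, where it averaged 6.65 ± 2.05 CPM (SD, n = 4). With the same floor it was at least 222-fold lower in KO at day 1, 194-fold at day 2, 128-fold at day 4 and 96-fold at day 6. Its relative Ppargc1b was higher in KO, at 14.4 ± 4.78 CPM against 6.93 ± 1.74 CPM in WT (1.05, edgeR adjusted p = 0.0171), as was Esrra, a nuclear receptor that works with both, at 53.6 ± 4.26 CPM against 37 ± 6.77 CPM in WT (0.53, edgeR adjusted p = 0.0314). Polg2 and Twnk, which replicate mitochondrial DNA, were the other two higher.

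Some subunits encoded by the mitochondrial genome were higher in KO. They summed to 51323 ± 9827 CPM in KO and 32685 ± 3974 CPM in WT at day 6 (SD, n = 4 each), and 3 of 10 tested were higher in KO (mt-Nd2, mt-Cytb and mt-Co1, edgeR, median log2 fold change 0.84).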

How the data were processed

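Each library was a TruSeq stranded mRNA library of C2C12 RNA, read at 51 bases. The deposited table holds raw counts per gene that the authors made with FastQC 0.11.9, STAR 2.7.9 and featureCounts 2.0.3, per the submitters' processing notes, which also name DESeq2 and the builds GRCm38 and GRCh38 without their roles. The strand setting and annotation are not given in the sources used here, so reads of a gene and of an overlapping antisense gene may not be told apart. All 29980 identifiers matched the GENCODE mouse annotation on GRCm38. A column that matched no sample was not used (1 column). Of values above 0, 64.4% were even, so both mates of a pair may have been counted; counting intervals and floors would then be too narrow, and bounds from 0 counts too large.

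Counts were fitted in edgeR 4.0.16 (R 4.3.3, limma 3.58.1) with TMM, filterByExpr by group, robust quasi-likelihood dispersions, 1 mean for each of 10 groups and 29 residual degrees of freedom. Calls used a threshold of 0.05 on p-values adjusted by Benjamini-Hochberg over the 13780 genes tested, separately in each of 11 contrasts. The SE of a log2 fold change comes from the spread of the libraries' log2 CPM (with a prior count of 2) within both groups. It is not on the scale of the fitted fold change and can be too small where a group is near 0 counts. Ratios of isoforms were tested by exact permutation of libraries with 0.1 CPM added. Intervals are 95% and, like floors of 3 counts, cover counting error only. Per-length values use exon lengths of that annotation. The fit was also run on simulated counts, whose outcome is not reported here, and no result above rests on it. Motif words were searched on both strands of RefSeq promoters (GRCm38.p6).

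Members and lists were chosen with earlier results of these data known. Named genes were the isoform pairs, the c-subunit genes, 1 core subunit per complex, up to 8 called members per direction and contrast with at least 5 CPM, up to 3 called genes of each further list, and Flnc. Uqcrh at day 1, Cox7b2, Ndufs6, Ndufa4l2, Uqcrc1 and the genes of further lists beyond those 3 were named after their values were seen.

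The labels give all groups the same replicate numbers. Deviations of same-numbered libraries from their group means correlated above 0.1 in every pair for KO against WT at days 0, 1, 2 and 4 (lowest 0.13) and for KO day 2 against day 0, but not for the other comparisons, so the numbers were taken to pair libraries in those 5. The main calls, their adjusted p-values and the permutation tests do not use this pairing, which enters only through the replicate block. Alternatives were DESeq2 1.42.0, its size factors in edgeR, library totals, no filter, halved counts, fits of only the groups compared, a replicate block, a pseudocount of 1 CPM, leaving out each library in turn, and leaving out KO day 1 replicate 3 with WT day 0 replicate 4.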

Additional observations from a re-analysis of the deposited data

Results flagged for a closer look

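Of 135 checks of group values for a library far from the others of its group, 20 met Dixon's 95% limit; chance flags about 1 in 20 groups. In KO day 1, 11 of the flagged values belonged to replicate 3, which was high throughout: complex I summed to 7461 CPM, its assembly factors to 215, complex II to 1356, complex III to 3303, complex IV to 6541, complex V to 10549 and all members to 29425. In the same library Cox6a1 was at 425 CPM, Cox7a2 at 323, Cox8a at 455 and Cox4i1 at 2264. In KO day 0, replicate 3 was high for complex II (1112 summed CPM) and for all members (21194), and replicate 4 held the only Cox8b counts (0.0854 CPM).

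In WT, the highest library of day 0 had 2335 summed CPM for complex IV and 217 CPM for Cox6a1, and the lowest of day 0 had 111 summed CPM for the complex I assembly factors. The highest library of WT day 1 had 3527 summed CPM for complex I. Cox4i1 reached 860 CPM in a library of WT day 2, and Cox7a1 reached 11.3 CPM in a library of WT day 6 where the next was 2.98 CPM.

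Ndufs4 changed differently in the lines between day 0 and day 6 by the genotype by day term itself, -1.78 on the log2 scale (edgeR adjusted p = 0.0134), with all KO libraries of day 6 below all WT libraries of that day.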

How the results depend on the processing

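With library totals in place of TMM, 14 members were called in KO against WT at day 0. Fits of only the groups compared called 0 in KO against WT at day 1 (edgeR, 87 members passed the filter, Cox6a2 and Cox8b not among them), 2 at day 2 and 11 at day 6, and 3 for genotype by day at day 6. DESeq2 called 12 in KO against WT at day 0 and 2 for genotype by day at day 6. Without KO day 1 replicate 3 and WT day 0 replicate 4, 39 were called in KO against WT at day 0, 2 at day 1 and 6 at day 6, 10 in WT at day 2, 23 in KO at day 2, 20 in KO at day 6 and 23 for genotype by day at day 6. Of the 13738 genes tested in that fit, 3657, 2380, 4561, 3517, 4665, 6722 and 2368 were called, in the same order. The causes were not tested.

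With the replicate block, members called numbered 34 in KO against WT at day 0, 15 at day 1, 6 at day 2, 10 at day 4 and 8 at day 6, 8 in WT at day 2, 54 in WT at day 6, 26 in KO at day 2, 20 in KO at day 6, and 1 at day 2 and 18 at day 6 for genotype by day. Calls over all 13780 genes rose too. KO against WT had 3996, 3799, 3568, 5207 and 5375 by day, where the main fit had 2142, 2484, 2467, 3791 and 3980. WT had 4243 at day 2 and 7503 at day 6 (main fit 3521 and 6813). KO had 4776 and 6748 (3665 and 6012). Genotype by day had 473 and 2968 (75 and 1371). Cox7b2 at days 2 and 4 lost its call under the block and under DESeq2.

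Leaving out each library in turn gave 1 to 15 called members in KO against WT at day 0, 2 to 18 at day 1, 2 to 3 at day 2, 1 to 5 at day 4 and 1 to 3 at day 6. It gave 3 to 6 in WT at day 2, 30 to 58 in WT at day 6, 2 to 9 in KO at day 2, 7 to 14 in KO at day 6, 0 for genotype by day at day 2 and 1 to 4 at day 6. The difference in the Cox7a1 to Cox7a2 ratio at day 1 ran between -0.03 and 0.35, negative without replicate 1 of WT or replicate 5 of KO. The other alternatives kept these counts within 1.5 times. Values of Cox6a2 and Cox8b at day 0, and of Cox7b2, Cox4i2 and Ndufa4l2 at every day, rest on few counts, at most 53 over a group. At day 1, Cox6a2 had 0 counts in KO and 60 in WT, and Cox8b had 18 in KO and 120 in WT.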
